A study of Saccharomyces cerevisiae with 12 samples.

Results

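The 10 genes described here encode the glucose-phosphorylating enzymes of baker's yeast (HXK1, HXK2 and GLK1) and the enzymes that carry glyceraldehyde 3-phosphate down to pyruvate (TDH1, TDH2, TDH3, PGK1, ENO1, ENO2 and CDC19). They were chosen by name, and each gene was read from the probe set that the platform annotation assigns to that gene and to no other. This gave 9 measured genes of the 5656 with such a probe set. TDH2 had none, and the 2 probe sets that name it also name TDH3, or TDH1 and TDH3.

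RNA came from 12 batch cultures of Saccharomyces cerevisiae S288C, 1 Affymetrix array per culture, in 4 groups of 3. All cultures started at an optical density of 0.1 and grew at 30 °C for 1 h before the additions and 5 h after them. All received dimethylformamide, alone in the control group and otherwise with tomatidine (0.625 ppm), tomatine (13.9 ppm) or fenpropimorph (0.313 ppm). Tomatine is a tomato glycoalkaloid, tomatidine is the same steroid without its sugars, and fenpropimorph is a morpholine fungicide that inhibits ergosterol synthesis. The 3 cultures of a group were grown on 3 separate days, and an array is called here by its group and day (tomatine 2 is that of day 2). The labels' titles gave the groups; another label field names tomatidine for every sample and was not used.

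S288C is a strain of mating type alpha. The 4 alpha-cell genes had summed signals of 11143 to 11255 in control cultures, and the 6 a-cell genes 177 to 211. The array medians lay between 77.2 and 78.6, and the small number of arrays limits the precision. Log2 signals correlated at 0.995 to 0.997 between arrays within a group and at 0.975 to 0.996 otherwise, and the fenpropimorph arrays stood apart from the other 9 on the first principal component (59.8% of the variance).

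Glycolysis begins with the phosphorylation of glucose, which holds the sugar in the cell, and its lower part yields the ATP that fermenting yeast lives on. Yeast keeps several genes for the same step. HXK2, TDH3, TDH2, ENO2, PGK1 and CDC19 are strongly expressed in cells fermenting glucose, and Hxk2 also takes part in glucose repression of other genes. HXK1, GLK1, TDH1 and ENO1 are known as the forms whose transcripts are favoured when glucose runs low, on other carbon sources, or in stationary phase and stress.

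By the moderated F test across the 4 groups, 5 of the 9 passed (37.2% of all 9275 tested probe sets did): HXK1, HXK2, GLK1, TDH1 and ENO1. The share among brighter probe sets was not computed for this test, so the count is not read as a result about these genes. The HXK2 call did not hold in every setting. With tomatine, HXK1, GLK1, TDH1 and ENO1 fell and none rose, so 4 of 9 were lower where 1.77% of all probe sets were. The members are named and bright; the share lower was 2.53% over 1 probe set per gene, and 4.46% when the brighter probe sets alone were refitted, which called the same number of members. With fenpropimorph, GLK1, TDH1 and ENO1 rose and none fell, so 3 of 9 were higher where 13.4% of all probe sets were (17.8% over 1 probe set per gene). The refit on brighter probe sets called 4 of 9, with HXK2 added, beside 19.7%. With tomatidine limma called 0 of 9, where 4.44% of all probe sets were called in either direction, and 1 of the 9, HXK1, had an unadjusted p under 0.05. The 3 comparisons share their control arrays and are not independent of each other.

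The median log2 fold change of the 9 genes was -0.09 with tomatine, 0.10 with fenpropimorph and -0.03 with tomatidine, beside -0.01, -0.07 and -0.02 over all probe sets. The signals of the 3 treated and the 3 control arrays did not overlap for 5 of 9 genes with tomatine (24.6% of all probe sets), 4 of 9 with fenpropimorph (44.8%) and 2 of 9 with tomatidine (24.1%). The 2 with tomatidine were ENO1 and CDC19, both higher than in every control array and neither called.

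**Figure D1:**
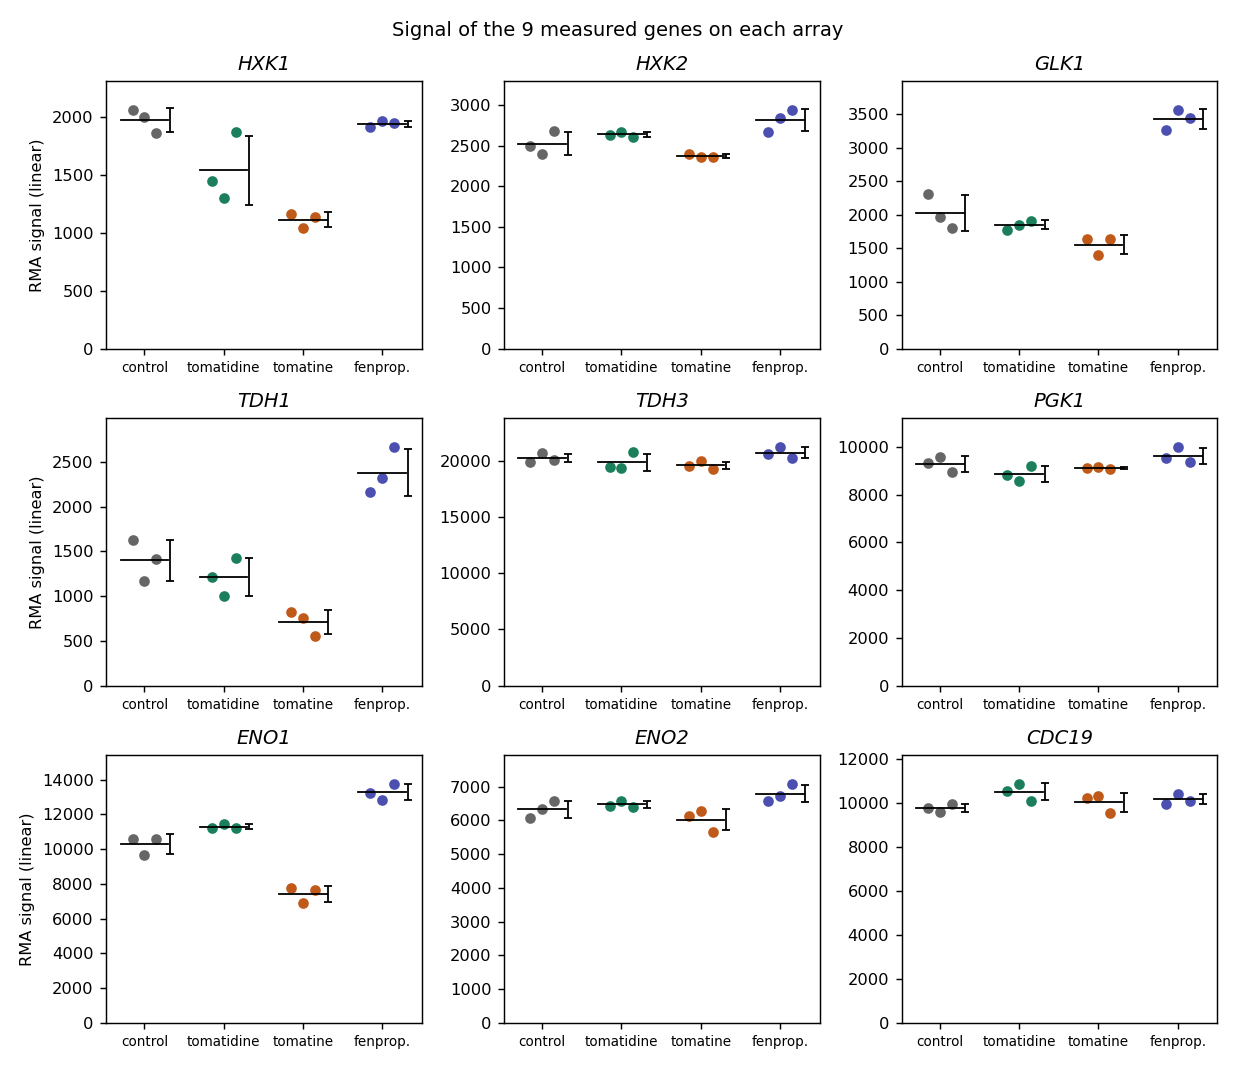
RMA signal on a linear scale (vertical axis, starting at 0) of each of the 9 measured genes in the 4 groups, with 1 point per array, ordered by day within a group, a line for the mean of 3 arrays and a bar for ±1 SD. HXK1, GLK1, TDH1 and ENO1 are lowest in the 3 tomatine arrays, GLK1, TDH1 and ENO1 are highest in the 3 fenpropimorph arrays, and TDH3, PGK1, ENO2 and CDC19 stay close to their control signals.

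Among the glucose-phosphorylating enzymes, HXK1 encodes hexokinase 1. Its signals on days 1, 2 and 3 were 2059.6, 1999.7 and 1859 in control, 1157, 1036 and 1136 with tomatine, 1444, 1299.7 and 1870.0 with tomatidine, and 1912, 1961 and 1941 with fenpropimorph. The tomatine arrays were the lowest 3 of the 12, well below every control array, the fenpropimorph arrays lay within the control range, and tomatidine 3 stood apart from the other tomatidine arrays at the control level. Against control, HXK1 was 1.78-fold lower with tomatine (log2 fold change -0.83 ± 0.111, SE, 3 arrays in each group; limma adjusted p = 0.00574), the 27th lowest of the 9275 probe sets. This call held without any 1 array, with adjusted p up to 0.0279.

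Hexokinase 1 with tomatidine stood at -0.38 on the log2 scale (95% interval -0.62 to -0.13, limma adjusted p = 0.0923). Of the fits without 1 array, only that without tomatidine 3 passed the test (-0.52, adjusted p = 0.00428). Without other single arrays the value went up to -0.26 and the adjusted p up to 0.351. Under the 10 settings the adjusted p ran from 0.0461 to 0.222. With fenpropimorph HXK1 stood at -0.02, with an interval of -0.27 to 0.22 (adjusted p = 0.896).

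GLK1 encodes glucokinase, which phosphorylates glucose but not fructose. Its signals were 2316, 1969 and 1799 in control, 1632, 1392 and 1637 with tomatine, 1778, 1853 and 1912 with tomatidine, and 3269.5, 3570.3 and 3439 with fenpropimorph. The fenpropimorph arrays lay far above all others, the tomatine arrays lay below all others, and the tomatidine arrays overlapped the controls. GLK1 rose 1.7-fold with fenpropimorph (log2 fold change 0.76 ± 0.0959, limma adjusted p = 8.61e-05), and the call held under every alternative setting and without any 1 array (adjusted p at most 0.0013).

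With tomatine GLK1 was 1.3-fold lower (log2 fold change -0.38 ± 0.0959, limma adjusted p = 0.0472). This call lay at the threshold. It was lost with the day as a replicate block (adjusted p = 0.0698), with quantile normalization (0.0669), with only the compared groups in the fit (0.146) and after leaving out any 1 array other than control 3. Without control 1, control 2, tomatine 1, tomatine 2 and tomatine 3 the adjusted p was 0.152, 0.11, 0.0784, 0.134 and 0.0911, and without 1 of the tomatidine or fenpropimorph arrays it was 0.0585 to 0.0642. A second probe set, shared by GLK1 and the overlapping reading frame YCL042W, had signals of 602 to 719 in control, 392 to 513 with tomatine and 1023 to 1274 with fenpropimorph. It was lower with tomatine (log2 fold change -0.57 ± 0.123, limma adjusted p = 0.027) and higher with fenpropimorph (0.77 ± 0.123, adjusted p = 0.000551).

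HXK2 encodes hexokinase 2, the main hexokinase of cells growing on glucose. Its signals were 2493, 2398 and 2684 in control, 2398, 2357 and 2354 with tomatine, 2636, 2667 and 2610.1 with tomatidine, and 2673, 2839 and 2942 with fenpropimorph. The whole span from the lowest to the highest group mean was 1.19-fold, fenpropimorph 1 lay just below control 3, and the tomatine arrays lay at or just below the lowest control array. HXK2 passed none of the 3 tests against control, and its F test call (adjusted p = 0.0352) was lost with the day as a replicate block (0.0516) and without control 1, tomatidine 1, any tomatine array, fenpropimorph 2 or fenpropimorph 3 (0.056 to 0.103). Its log2 fold change was 0.16 with fenpropimorph (95% interval 0.02 to 0.29, limma adjusted p = 0.0752), 0.06 with tomatidine (-0.07 to 0.20) and -0.09 with tomatine (-0.23 to 0.05). Without control 3 or fenpropimorph 1 the fenpropimorph value passed (adjusted p = 0.0456 and 0.0499), and it passed under 5 of the 10 settings: quantile normalization (0.0293), 16 added before log2 (0.0315), a trended robust prior (0.0338), bright probe sets only (0.0334) and probe sets averaged per gene (0.0432).

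TDH1, TDH2 and TDH3 encode glyceraldehyde-3-phosphate dehydrogenase, which makes the first energy-rich phosphate and the NADH of glycolysis. TDH1 had the widest range of the 9 genes. Its signals were 1628, 1171 and 1412 in control, 818, 751 and 556 with tomatine, 1213, 998 and 1430.3 with tomatidine, and 2159.6, 2318 and 2669 with fenpropimorph. Each tomatine array was below and each fenpropimorph array above all of the other arrays, while the tomatidine arrays overlapped the controls.

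TDH1 was 1.99-fold lower with tomatine (log2 fold change -0.99 ± 0.171, limma adjusted p = 0.0124), the 14th lowest probe set of the 9275. Leaving out control 1, the brightest control array for this gene, gave -0.88 and an adjusted p of 0.0543. With fenpropimorph TDH1 rose 1.71-fold (log2 fold change 0.77 ± 0.171, limma adjusted p = 0.00496), and this call held without any 1 array (adjusted p at most 0.0241). With tomatidine the log2 fold change was -0.21 (95% interval -0.59 to 0.16, adjusted p = 0.582).

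TDH3, the most strongly expressed of the 3 genes in fermenting cells, had signals of 19932, 20661 and 20123 in control, 19582, 19959.6 and 19309 with tomatine, 19455, 19388 and 20757 with tomatidine, and 20651, 21252 and 20261 with fenpropimorph. All groups overlapped the control range, and the group means spanned 1.06-fold. Fenpropimorph 2 held the highest value of the whole table. Whether signals this bright still follow the amount of RNA was not tested.

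The probe set shared by TDH2 and TDH3 had signals of 7115 to 7468 in control, 7258 to 7797 with tomatine, 7064 to 7777 with tomatidine and 7753 to 8524 with fenpropimorph. The fenpropimorph arrays were above every control array but the difference was not called (log2 fold change 0.14, 95% interval -0.003 to 0.28, limma adjusted p = 0.133). The probe set shared by all 3 genes was not called either, at 0.13 with fenpropimorph and -0.01 with tomatine (adjusted p = 0.192 and 0.97). TDH2 itself is therefore seen only together with its relatives.

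PGK1 encodes phosphoglycerate kinase, which makes ATP at the next step and has a single gene. Its signals were 9335, 9595 and 8939.7 in control, 9115, 9175 and 9065 with tomatine, 8842, 8567 and 9218 with tomatidine, and 9519, 10005 and 9355 with fenpropimorph. The groups overlapped the control range in each comparison.

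ENO1 and ENO2 encode the enolases, which form phosphoenolpyruvate. ENO1 had signals of 10613, 9639 and 10612 in control, 7751, 6903 and 7634 with tomatine, 11218, 11454 and 11243 with tomatidine, and 13218, 12843 and 13755 with fenpropimorph. The 4 groups were fully separated, in the order tomatine, control, tomatidine, fenpropimorph. Against control, ENO1 was 1.39-fold lower with tomatine (log2 fold change -0.47 ± 0.0667, limma adjusted p = 0.00631) and rose 1.29-fold with fenpropimorph (0.37 ± 0.0667, adjusted p = 0.00135). Both calls held without any 1 array, with adjusted p up to 0.0325 and 0.0069. With tomatidine the log2 fold change was 0.14 (95% interval -0.01 to 0.28, adjusted p = 0.325), so the step between control and tomatidine in this order did not pass the test.

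ENO2, the enolase that glucose induces, had signals of 6077, 6343 and 6569 in control, 6129.9, 6276 and 5666 with tomatine, 6435, 6582 and 6411 with tomatidine, and 6568, 6739 and 7083 with fenpropimorph. Each treated group overlapped the controls. The probe set shared by ENO1 and ENO2 had signals of 9424 to 9669.9 in control and 8813 to 9553 with tomatine, and its log2 fold changes were -0.05 with tomatine and 0.10 with fenpropimorph (limma adjusted p = 0.709 and 0.227). It thus moved less than the ENO1 probe set and was not called. The probe sets of ENO1, ENO2 and TDH3 carry a suffix that marks an incomplete set of unique probes, and how far close relatives add to their signals was not tested.

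CDC19 encodes the main pyruvate kinase, which releases the last ATP of glycolysis. Its signals were 9745, 9602 and 9942 in control, 10229, 10293 and 9534 with tomatine, 10551, 10858 and 10083 with tomatidine, and 9961, 10419 and 10101 with fenpropimorph. All tomatidine and fenpropimorph arrays were above the brightest control array, in the case of fenpropimorph 1 only just, and the group means spanned 1.07-fold.

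TDH3, PGK1, ENO2 and CDC19 were the 4 genes that the F test did not call. Their 12 log2 fold changes against control ran from -0.07 to 0.10, and the 95% intervals, unadjusted for the number of tests, all lay between -0.21 and 0.24. The lowest limma adjusted p among the 12 was 0.247.

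**Figure D2:**
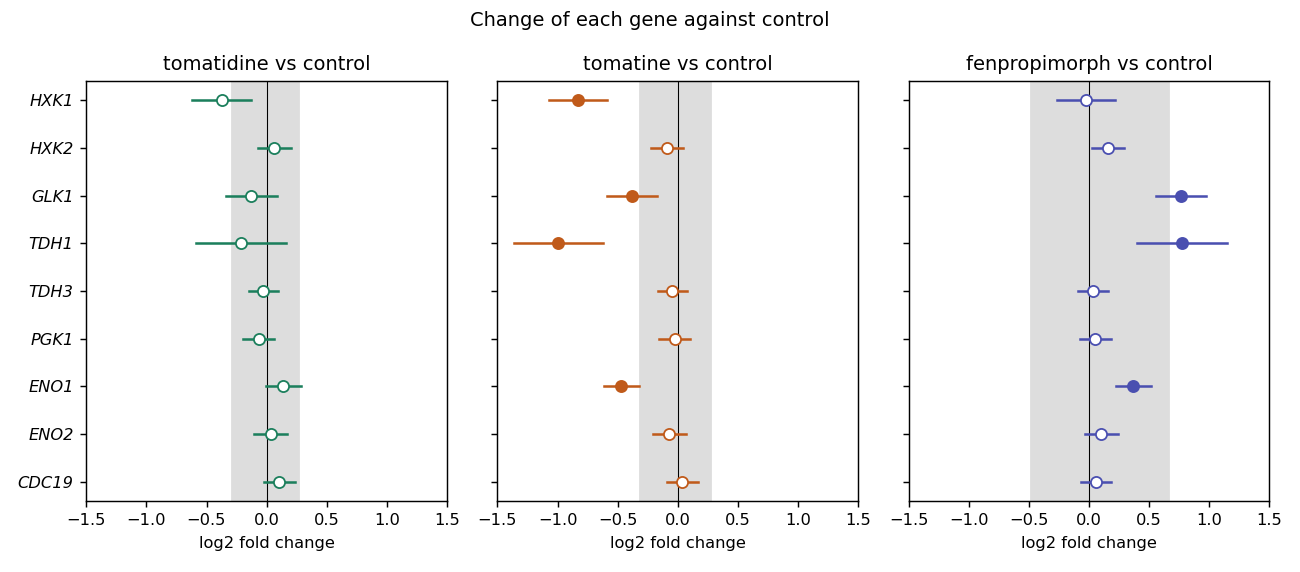
Log2 fold change against control (horizontal axis) of the 9 genes in 3 panels, 1 per compound, with 95% intervals as lines; filled points passed the limma test at an adjusted p under 0.05, and the grey band holds the middle 90% of all 9275 probe sets. With tomatine HXK1, GLK1, TDH1 and ENO1 are filled and left of the band, and with fenpropimorph GLK1 and TDH1 lie right of a wider band, which runs from -0.48 to 0.67, while ENO1 is filled inside it.

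The isoenzymes of a step did not move by the same amount. Signals of different probe sets cannot be set against each other as levels, so the log2 difference between 2 isoenzymes was taken on each array and expressed relative to its control mean, as a description. For TDH1 minus TDH3 it was 0.25, -0.28 and 0.03 in the 3 control arrays, -0.72, -0.87 and -1.25 with tomatine, and 0.60, 0.67 and 0.94 with fenpropimorph. The 3 groups were separate. These differences rest on a TDH3 signal near the top of the array, whose proportion to RNA was not tested, so no fold is drawn from them. For ENO1 minus ENO2 the mean was -0.40 ± 0.15 (SD, n = 3) with tomatine, 0.27 ± 0.04 with fenpropimorph and 0.10 ± 0.0058 with tomatidine.

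The 3 glucose-phosphorylating enzymes parted in another way. HXK1 minus HXK2 was 0.08, 0.09 and -0.17 in control. It was -0.70, -0.83 and -0.70 with tomatine, -0.51, -0.68 and -0.13 with tomatidine, and -0.13, -0.18 and -0.24 with fenpropimorph. GLK1 minus HXK2 was 0.61, 0.65 and 0.55 with fenpropimorph, above each of the other 9 arrays. HXK1 minus GLK1 was therefore lowest with fenpropimorph, at -0.79 ± 0.0453 (SD, n = 3), compared with -0.45 ± 0.0518 with tomatine and -0.25 ± 0.24 with tomatidine. HXK1 and GLK1, which were both lower with tomatine, thus went apart with fenpropimorph, where GLK1 rose and HXK1 stayed within the control range.

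**Figure D3:**
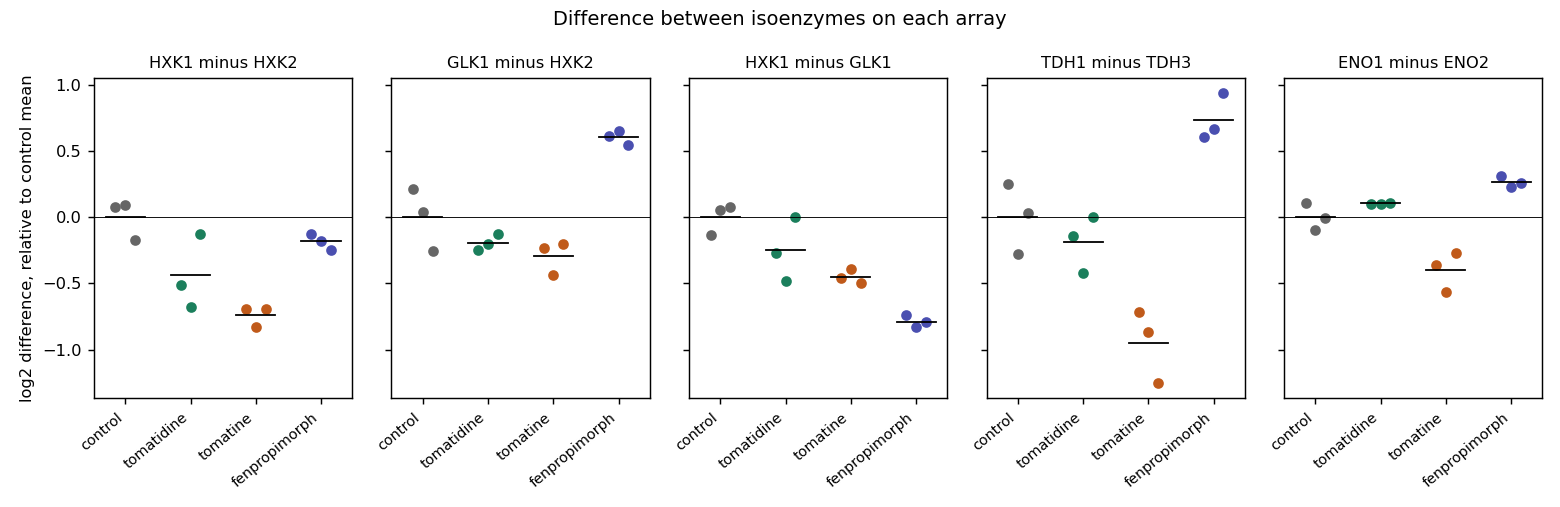
Log2 difference between 2 isoenzymes on each array, relative to the mean of the 3 control arrays (vertical axis), for 5 pairs, with 1 point per array and a line for the group mean. TDH1 minus TDH3 is lowest with tomatine (mean -0.95) and highest with fenpropimorph (0.74), whereas HXK1 minus GLK1 is lowest with fenpropimorph (-0.79). The proportion of the TDH3 signal to RNA was not tested.

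The treated cultures were also compared with each other, in 3 pairs, with p-values adjusted over all probe sets within each pair. Tomatine and tomatidine share the steroid and differ in the sugars, but their doses differed, so these tests compare the cultures and not the molecules at a matched dose. In tomatine cultures 3 of 9 genes were lower than in tomatidine cultures (2.89% of all probe sets were) and none was higher. ENO1 was 1.52-fold lower (log2 difference -0.61 ± 0.0667, limma adjusted p = 0.000262), TDH1 1.72-fold lower (-0.78 ± 0.171, adjusted p = 0.0226) and HXK1 1.37-fold lower (-0.46 ± 0.111, adjusted p = 0.0367). Only the ENO1 call was left without tomatidine 1, tomatidine 3 or tomatine 3. HXK1 also lost its call without control 1, control 2, tomatine 1, tomatine 2, fenpropimorph 2 or fenpropimorph 3 (adjusted p over all 9 cases 0.0506 to 0.111), and TDH1 had 0.0736 to 0.0776 in its 3 cases. The GLK1 difference was -0.25 (95% interval -0.46 to -0.04, adjusted p = 0.165).

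Fenpropimorph cultures, compared with tomatine cultures, were higher in 6 of 9 genes (15.9% of all probe sets were): TDH1 3.39-fold (log2 difference 1.76 ± 0.171, limma adjusted p = 7.49e-06), GLK1 2.21-fold, ENO1 1.79-fold, HXK1 1.75-fold, HXK2 1.19-fold and ENO2 1.13-fold. The ENO2 difference had an adjusted p of 0.0441 and lost its call with the day as a replicate block (0.0614) and without any 1 array except tomatine 2 and fenpropimorph 1 (0.0503 to 0.146). Against tomatidine cultures, fenpropimorph cultures were higher in 4 of 9 (13.5% of all probe sets were): TDH1 1.98-fold, GLK1 1.85-fold, HXK1 1.28-fold and ENO1 1.17-fold (adjusted p = 0.000971, 3.05e-05, 0.0318 and 0.0206). The count of 4 was 2 without tomatidine 1 or fenpropimorph 3. HXK1 lost its call without tomatidine 1, tomatidine 2 or any fenpropimorph array (adjusted p = 0.0606 to 0.127), and ENO1 without tomatidine 1, tomatidine 3 or fenpropimorph 3 (0.0528 to 0.0711).

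Beside these results, the alpha-cell genes moved with 2 of the compounds: their summed signal was 4882 to 5892 with fenpropimorph, 8300 to 9095 with tomatidine and 11346 to 11739 with tomatine. All 4 fell with fenpropimorph (16.9% of all probe sets did) and 2 fell with tomatidine (1.91% did). The a-cell genes summed to 178 to 213 in the treated cultures. With fenpropimorph 1 of the 6, BAR1, was called higher (13.4% of all probe sets were), at signals of up to 15.1 that were not shown to be above background. Its limma adjusted p was 0.033, and up to 0.12 without control 1, control 3, fenpropimorph 2 or fenpropimorph 3. The 3′ to 5′ log2 ratio of the control gene SPT15, a measure of RNA integrity, was 1.82 ± 0.285 (SD, n = 3) with tomatidine and 2.24 to 2.34 in the other group means, while that of ACT1 was 0.33 to 0.46 in all 4. Their part in the values of the 9 genes was not tested. The arrays measure RNA relative to the rest of the extract, so a change in one transcript and a change in all others cannot be told apart.

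Other genes of glycolysis give the setting. None of the 5 genes between glucose 6-phosphate and glyceraldehyde 3-phosphate (PGI1, PFK1, PFK2, FBA1 and TPI1) was called against control with any compound, and their median log2 fold changes were -0.05 with tomatidine, -0.03 with tomatine and 0.03 with fenpropimorph. Of 4 further genes of lower glycolysis, 2 were called higher with fenpropimorph, none was lower, and none was called with tomatine or tomatidine. Among all probe sets, 13.4% were higher and 16.9% lower with fenpropimorph. With tomatine 2.59% were higher and 1.77% lower, and with tomatidine 4.44% were called in either direction. GPM2, a paralogue of the phosphoglycerate mutase gene GPM1, had signals of 15.4 to 23.1 in control and 39.4 to 48.6 with fenpropimorph, and its difference passed the test (limma adjusted p = 0.000275). These signals lay below those of the a-cell genes MFA1 and MFA2, which alpha cells do not express and which read 53.4 to 110.4. With fenpropimorph the GPM2 signals lay above those of the a-cell genes STE2, STE6, BAR1 and AGA2. The medians of these with fenpropimorph were 6.3, 15.5, 14.8 and 6.4. The a-cell genes thus set no single background level. Whether GPM2 was above background was not tested, so no fold is given. PYK2, the minor pyruvate kinase that glucose represses, rose 1.58-fold from 106 to 140 in control to 167 to 209 (0.66 ± 0.115, adjusted p = 0.00103). Its lowest control signal lay inside the range of MFA1 and MFA2 and above the signals of STE2, STE6, BAR1 and AGA2. How far background adds to this fold was not tested. Neither GPM2 nor PYK2 was called with tomatine (adjusted p = 0.0587 and 0.258). The GPM2 signals with tomatine were 10.8 to 15.3, and the adjusted p ran from 0.0264 to 0.188 over the alternatives, with 0.0274 for the day as a replicate block. GPM1 had log2 fold changes of -0.07 with tomatine and 0.05 with fenpropimorph.

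EMI2, a paralogue of GLK1, was the 1 measured gene of 2 listed relatives of the hexokinases. It followed the direction of GLK1 in both comparisons with control where GLK1 was called. Between fenpropimorph and tomatidine cultures, where GLK1 was also called, EMI2 was not (log2 difference 0.30). The EMI2 signals were 386 to 487 in control, 280.4 to 339.8 with tomatine and 535 to 599 with fenpropimorph. It fell with tomatine (log2 fold change -0.50 ± 0.11, limma adjusted p = 0.0301) and rose with fenpropimorph (0.35 ± 0.11, adjusted p = 0.0324). The tomatine call was lost without control 1, control 2, tomatine 2 or tomatine 3 (adjusted p = 0.0809 to 0.112) and the fenpropimorph call without control 2, control 3, fenpropimorph 1 or fenpropimorph 2 (0.0502 to 0.131). The tomatine call was also lost with only the compared groups in the fit (0.0827), and the fenpropimorph call with quantile normalization (0.0561).

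Of 10 genes of ethanol and acetate formation, 1 rose with tomatidine, 1 fell with tomatine, and 2 rose and 1 fell with fenpropimorph. Among all probe sets, 2.53% rose and 1.91% fell with tomatidine, and 2.59% rose and 1.77% fell with tomatine. With fenpropimorph 13.4% rose and 16.9% fell. The gene called with tomatidine and with tomatine was ADH5, an alcohol dehydrogenase. Its signals were 249 to 262 in control, 350 to 466 with tomatidine, 128 to 149.7 with tomatine and 261.5 to 353.4 with fenpropimorph. It rose 1.56-fold with tomatidine (log2 fold change 0.64 ± 0.123, limma adjusted p = 0.0118, and 0.0504 without control 1) and was 1.88-fold lower with tomatine (-0.91 ± 0.123, adjusted p = 0.00574). The aldehyde dehydrogenase genes ALD6 and ALD4 rose with fenpropimorph (0.72 ± 0.179 and 0.49 ± 0.156) and the alcohol dehydrogenase gene ADH4 fell (-0.32 ± 0.0732). The ALD4 call was lost without control 2, control 3, fenpropimorph 2 or fenpropimorph 3 (adjusted p = 0.0686 to 0.126). PDC1 and ADH1, the main enzymes of ethanol formation, had log2 fold changes of -0.07 to 0.09 across the 3 compounds and were not called.

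The branches that lead glucose 6-phosphate to trehalose and glycogen held 11 genes, of which 2 fell with tomatine (1.77% of all probe sets did), and 5 rose and 1 fell with fenpropimorph (13.4% and 16.9%), with none called with tomatidine (4.44%). PGM2, phosphoglucomutase, fell with tomatine and rose with fenpropimorph (log2 fold changes -1.08 ± 0.263 and 0.87 ± 0.263, limma adjusted p = 0.0429 and 0.0256), and GPH1, glycogen phosphorylase, fell with tomatine (-0.80 ± 0.176, adjusted p = 0.0301). The trehalose synthase genes TPS1, TPS2 and TPS3 and the trehalase gene NTH1 rose with fenpropimorph, by 0.79, 0.90, 0.41 and 0.64, and the glycogen synthase gene GSY2 had a log2 fold change of -0.45 (adjusted p = 0.0425). PGM2 lost its tomatine call without any 1 array but tomatine 1 and tomatidine 2 (0.0538 to 0.146) and its fenpropimorph call without control 2, control 3, fenpropimorph 2 or fenpropimorph 3 (0.0626 to 0.0924). GPH1 lost its call without control 1, control 3 or any tomatine array (0.0532 to 0.113), and GSY2 without control 1, control 2, tomatidine 1, tomatine 2, fenpropimorph 2 or fenpropimorph 3 (0.0528 to 0.16). The tomatine calls of PGM2 and GPH1 were also lost with only the compared groups in the fit (0.129 and 0.0706). So was the GSY2 call in that setting (0.0523) and with median centring (0.053).

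Among regulators, 0 of 6 transcription factor genes of glycolysis and 0 of 14 genes of glucose repression and Hxk2 signalling were called by limma with tomatine or with tomatidine. The shares over all probe sets were also small, at 2.59% higher and 1.77% lower with tomatine and 4.44% in either direction with tomatidine. With fenpropimorph, where 16.9% of all probe sets were lower and 13.4% higher, 3 of 6 factor genes fell: on the log2 scale GCR2 changed by -0.24 ± 0.0657, RAP1 by -0.28 ± 0.0751 and REB1 by -0.37 ± 0.104. Of the 14 others 1 rose and 3 fell, close to or below the shares over all probe sets. MIG2, a glucose-responsive repressor, rose 1.96-fold (0.97 ± 0.207, limma adjusted p = 0.00388), and TUP1, CYC8 and SNF4 fell (-0.39 ± 0.0704, -0.24 ± 0.0762 and -0.25 ± 0.0721). Without 1 array of the compared groups the calls of GCR2, RAP1, REB1, CYC8 and SNF4 were lost in 1, 2, 3, 4 and 3 of 6 cases, with adjusted p up to 0.0615, 0.0643, 0.0732, 0.132 and 0.0813. Fenpropimorph 2 was among the arrays whose loss ended the call for GCR2, RAP1, CYC8 and SNF4, fenpropimorph 3 for REB1, CYC8 and SNF4, control 1 for CYC8 and SNF4, control 2 for REB1, and control 3 for RAP1, REB1 and CYC8. CYC8 also lost its call with only the compared groups in the fit (0.0573), and GCR2 with probe sets averaged per gene (0.0592).

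**Figure D4:**
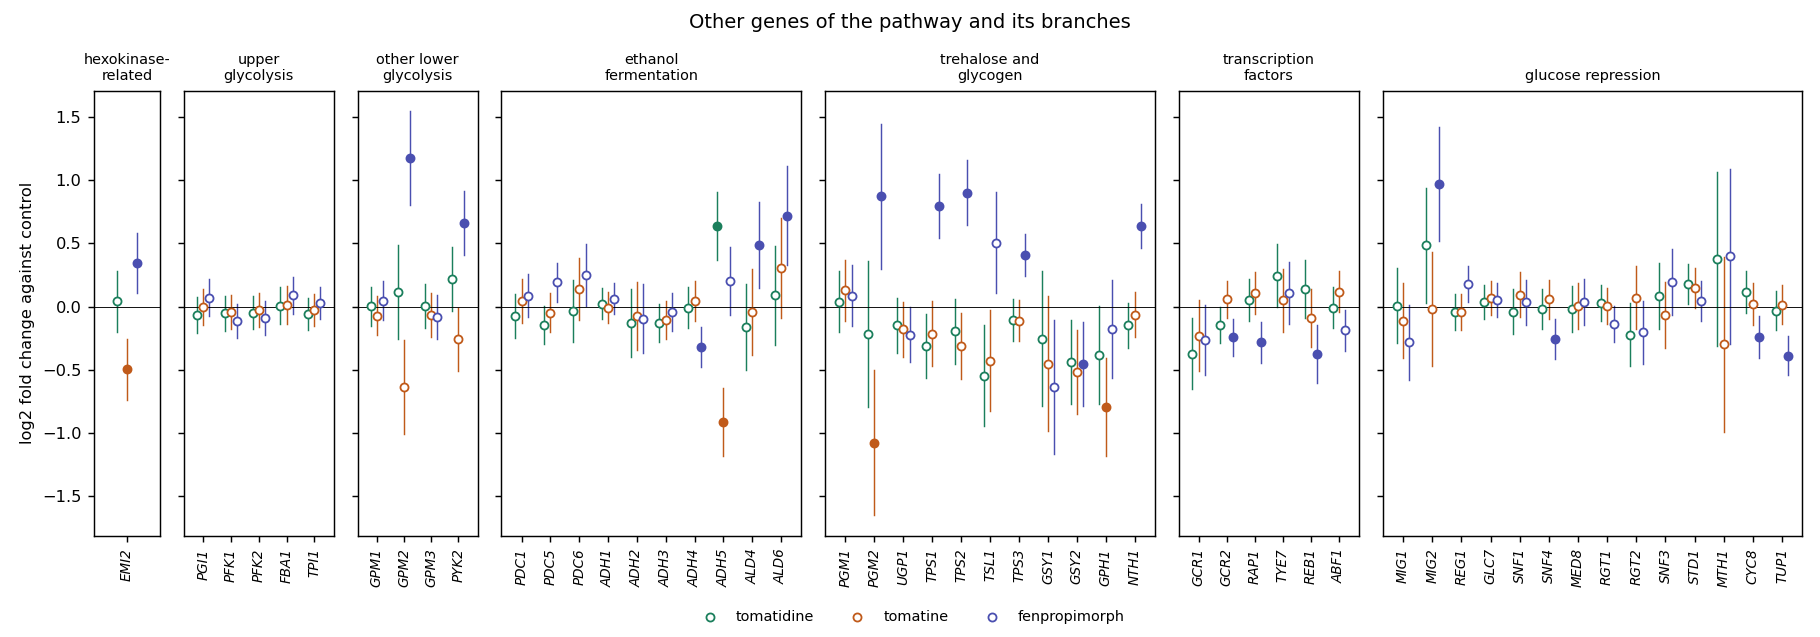
Log2 fold change against control (vertical axis) with 95% intervals for 51 further genes in 7 panels, coloured by compound; filled points passed the limma test. The genes of upper glycolysis lie near 0 with all 3 compounds, GPM2 and PYK2 are filled and above 0 with fenpropimorph, ADH5 is filled above 0 with tomatidine and below 0 with tomatine, and PGM2 is filled below 0 with tomatine and above 0 with fenpropimorph.

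Likeness of pattern was measured as the Pearson correlation of log2 signals over the 12 arrays with 5647 other genes. These arrays share 4 groups and 1 scaling, and the values are descriptions. The 3 genes nearest to GLK1 were PFK26, PNC1 and YDC1 (r = 0.988, 0.987 and 0.983), of which PFK26 encodes the kinase that makes fructose 2,6-bisphosphate. Nearest to TDH1 were APE1, a vacuolar aminopeptidase, HSP26, a small heat shock protein, and APE4 (0.956, 0.951 and 0.949). Nearest to HXK1 were EGO4, SNO1 and KGD4 (0.966, 0.935 and 0.906), and nearest to ENO1 were GPA2, a G protein subunit of glucose sensing, QDR3 and SRV2 (0.964, 0.934 and 0.934). HXK2 was nearest to PKP1, TAM41 and MSO1 (0.938, 0.921 and 0.91). With each array taken relative to its group mean, r was lower for all 15 of these genes, from 0.21 for QDR3 with ENO1 to 0.866 for EGO4 with HXK1.

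The 4 genes that the F test did not call had group means that spanned 1.06-fold to 1.13-fold. What sets their nearest genes was not tested. For PGK1 they were TPI1, the triose phosphate isomerase gene, DDC1 and YBL100W-C (r = 0.92, 0.907 and 0.9). For TDH3 they were ATG31, MMT2 and YER039C-A (0.899, 0.874 and 0.865), and for ENO2 MXR2, TAM41 and TRX2 (0.927, 0.922 and 0.9). Those of CDC19 were YFR057W, SPP1 and MCO6 (0.893, 0.891 and 0.877). Taken relative to the group means, r for these genes ran from 0.694 (TRX2 with ENO2) to 0.947 (SPP1 with CDC19). It was above the value over the 12 arrays only for SPP1 and for YBL100W-C with PGK1 (0.901). Among the members, TDH1 correlated at 0.898 with GLK1, 0.897 with ENO1 and 0.848 with HXK1 over the 12 arrays, at 0.692 with TDH3 and at 0.0860 with CDC19.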

How the data were processed

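Per the submitters' processing notes the authors summarised the deposited intensity values with RMA; version and settings are not given in the sources used here. They were on a linear scale (1.84 to 21252), so log2 was taken. Leaving out 60 array controls gave 9275 tested probe sets.

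limma 3.58.1 under R 4.3.3 fitted the 4 groups together, with residual and prior degrees of freedom of 8 and 3.65 behind the moderated variances. Tests were two-sided, and p-values were Benjamini-Hochberg adjusted over all 9275 probe sets, called under 0.05. Values after ± are standard errors unless marked SD, and 95% intervals are unadjusted. The brightest single-gene probe set stood for a gene; each measured member had 1. The script was tested on simulated data. Figures used matplotlib 3.10.9.

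The members, the 7 pathway and 2 mating-type lists, and the naming rule (all members, all called list genes, the 3 likest genes) were chosen with earlier results of these data known. Same-numbered arrays share a day of culture, per the labels, and so are paired; deviations from group means of 18 same-day pairs correlated at 0.0351 on average (-0.203 to 0.236). Sequences were not used here.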

Additional observations from a re-analysis of the deposited data

How the results depend on the processing

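The count of called members was recomputed under 10 settings and without each array. With tomatine against control it was 3 to 4 under the settings and 2 to 4 without 1 array. With fenpropimorph it was 2 to 4 and 3 to 4. The 2 came after leaving out marked probe sets, which left 6 members measured, without ENO1, ENO2 and TDH3. In that setting 3 of the 6 were called with tomatine. With tomatidine the count was 0 or 1 both under the settings and without 1 array. It was 1 (HXK1, lower) with bright probe sets only, with probe sets averaged per gene, and without tomatidine 3. Tomatine against tomatidine gave 1 with only the compared groups in the fit and 1 to 3 without 1 array; fenpropimorph gave 2 to 4 against tomatidine and 5 to 6 against tomatine without 1 array. The F test called 4 or 5 members, with 4 of the 6 measured without marked probe sets. Called probe sets with tomatidine were 252 with only the compared groups and 221 to 402 without 1 array (412 with all), and with tomatine they were 121 with only the compared groups, 625 with 16 added before log2, 637 averaged per gene and 83 to 397 without 1 array (404 with all). With only the compared groups 56 were higher and 65 lower with tomatine, beside 240 and 164. With the day as a replicate block the members called were 3 with tomatine, GLK1 having lost its call (log2 fold change -0.38, adjusted p = 0.0698), and 3 with fenpropimorph; ENO2 against tomatine and the F test of HXK2 also lost their calls, and no other member call changed. No called member changed direction in any setting. Quantile normalization and median centring gave medians over all probe sets of 0.01 and 0.01 with tomatine and -0.06 and -0.06 with fenpropimorph, beside -0.01 and -0.07. The cause of these shifts was not tested, except that fewer features or arrays entered some fits.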
